A study of Mus musculus with 6 samples.

Results

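The nuclear-encoded genes of oxidative phosphorylation were followed in bone marrow progenitors of mice with and without a conditional knockout of Ints11. Members were all rows of the count table whose symbol begins with Nduf followed by a, b, c, s or v and a number, with Uqcr, with Cox4 to Cox8 or with Atp5, or is Sdha, Sdhb, Sdhc or Sdhd. This rule found 84 of the 24062 rows, and it used no measured value. Of these, 35 belong to complex I, 4 to complex II, 8 to complex III, 20 to complex IV and 17 to complex V. Ndufa4 and Ndufa4l2 were counted with complex IV, where the NDUFA4 protein is now placed. The symbols Ndufa4l2, Cox7a2l, Atp5s and Atp5sl stand for proteins that are not counted as structural subunits, which leaves 80 subunit genes.

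The KO group held 3 C57BL/6 mice that carried Mx1-Cre together with floxed alleles of Ints11, and the WT group held 3 littermates of the same strain. Mx1-Cre is driven by an interferon-inducible promoter that is active in many cell types, and the inducer poly(I:C) is an RNA mimic that itself raises interferon. Cells of all 6 mice, WT as well as KO, are labelled as collected 4 days after that injection. Whether the WT mice carried Mx1-Cre was not given in the sources used here. Cells of each mouse were sorted for Kit, a receptor of blood stem and progenitor cells, and each library came from 1 mouse. The design text of the series adds that the cells were lineage-negative, a step that removes mature blood cells, while the sample labels name Kit alone. INTS11 is the RNA-cleaving subunit of Integrator, a complex that trims small nuclear RNAs and ends transcription near promoters. Libraries are named by genotype and mouse number, and values are given in the order KO_339, KO_340 and KO_345, and WT_341, WT_343 and WT_344.

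Oxidative phosphorylation takes place in the inner mitochondrial membrane. Complex I takes electrons from NADH and complex II takes them from succinate, complex III hands them to cytochrome c, and complex IV passes them to oxygen. Complexes I, III and IV pump protons, and complex V, the ATP synthase, makes ATP as the protons flow back. Complexes I, III, IV and V also hold subunits made from mitochondrial DNA, which were not analysed here. Adult blood stem cells are known to rely little on respiration at rest and more on it as they enter differentiation.

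Total counts were between 127011537 and 142983542 in KO libraries and between 124074531 and 166860739 in WT libraries, and the members took 871258 to 1012653 of these in KO and 976509 to 1619146 in WT libraries. Ints11, listed under its older symbol Cpsf3l (chromosome 4, 155869546 to 155889103, plus strand, GRCm38), had 64.3, 58.3 and 60.2 CPM (counts scaled by library total and by a TMM factor that evens out composition) in KO libraries, against 73.8, 92.3 and 78.9 CPM in WT libraries. Its log2 change, KO over WT, was -0.42 ± 0.10 (SE, adjusted p = 0.0174), and the groups did not overlap. Ints11 no longer passed when KO_340 (adjusted p = 0.0557) or KO_345 (adjusted p = 0.0541) was left out, or with neutrophil marker level as a covariate (adjusted p = 0.194), and which exons are deleted was not given in the sources used here. Kit stood at 220, 238 and 226 CPM in KO libraries and at 221, 199 and 214 CPM in WT libraries, with no call (log2 0.11, adjusted p = 0.269). Of 12 stem and progenitor markers, 7 were higher in KO libraries, among them Gata2 (log2 1.41) and Meis1 (0.70), and 1, Cd48, was lower (-0.46). The mature neutrophil list, whose products a Kit sort should largely leave behind, summed to 57916, 44462 and 44094 CPM in KO libraries, against 36532, 11511 and 21521 CPM in WT libraries. All 12 of its genes in the table were above 0 in every library, and 4 were called higher. Summed erythroid markers were 309 to 365 CPM in KO and 370 to 558 CPM in WT libraries (1 of 11 lower), T and NK cell markers 16.6 to 31.3 and 11.6 to 12.8 CPM (3 of 8 higher), and macrophage markers 414 to 630 and 290 to 492 CPM (2 of 8 higher). By mean log2 CPM, which weighs the erythroid markers evenly, only WT_341 (4.298) lay above the KO libraries (2.416, 2.545 and 2.661). WT_343 (2.193) and WT_344 (2.334) lay below them. By the same measure the macrophage markers overlapped between the groups, at 4.327, 3.084 and 4.822 in KO and 2, 4.603 and 4.569 in WT libraries. Of these 8 genes, 5 had a log2 change below 0 (median -0.04). Stroma and endothelium markers summed to 97.0 to 177 CPM in KO and 83.9 to 101 CPM in WT libraries (2 of 8 higher), and B cell markers to 56.0 to 96.8 and 26.3 to 101 CPM. In these bulk samples, fewer cells of a type and less RNA per cell cannot be told apart.

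Transcripts of the respiratory chain and the ATP synthase were lower in KO cells across all 5 complexes. Of the 81 members tested, 55 were lower and 0 were higher in KO libraries at an adjusted p under 0.05 (quasi-likelihood test of edgeR, Benjamini-Hochberg adjustment over 15742 genes). Over all genes tested, 35.9% passed in either direction, 19.9% lower and 16.0% higher. Among the 8963 genes with a mean of at least 10 CPM, 32.0% were lower. In that range 53 of 74 members, or 71.6%, were lower. The median log2 change of the tested members was -0.41, with a middle range of -0.53 to -0.25, while it was 0.01 over all genes tested and -0.15 over genes of at least 10 CPM. No member was higher at an unadjusted p under 0.05 either, and DESeq2 and limma-voom also called 0 members higher. The tested members with a log2 change below 0 numbered 77 of 81 (95.1%, against 49% of all genes tested). Among genes of at least 10 CPM these were 72 of 74 members, or 97.3%, against 67.1%. In 61 of the 81 every KO library lay below every WT library, against 28.4% of all genes tested, and in 1 every KO library lay above, against 25.6%. At 10 CPM or more, every KO library lay below every WT library in 57 of 74 members, against 43.7% of genes in that range.

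Summed over all members, the level was 6942, 6865 and 6528 CPM in KO libraries, against 7919, 10245 and 9052 CPM in WT libraries. The KO mean was 74.7% of the WT mean, and the groups did not overlap. By complex, the summed KO mean was 75.5% of WT for complex I (1619 and 2144 CPM), 72.2% for II (443 and 614 CPM), 71.8% for III (689 and 960 CPM), 80.9% for IV (1264 and 1563 CPM) and 72.8% for V (2762 and 3792 CPM). The WT mice were less alike than the KO mice. WT_343 was the highest WT library for 69 of the 81 tested members and WT_341 the lowest for 66, and the median coefficient of variation among the 74 members of at least 10 CPM was 4.64% in KO and 12.4% in WT libraries. The neutrophil markers ran in the opposite order within WT, lowest in WT_343 and highest in WT_341. With the neutrophil marker level as a covariate in the fit, 11 members were lower and 0 higher, the median change was -0.22, and 6.02% of all genes were called lower. This covariate, the centred mean log2 CPM of the markers, was 0.83, 0.51 and 0.47 in KO and 0.26, -1.51 and -0.55 in WT libraries. Every KO library thus lay above every WT library, and the fit cannot cleanly separate neutrophil level from genotype. The part of the neutrophil signal in the members' change was not tested. Leaving out 1 library gave 31 members lower without KO_339, 27 without KO_340, 26 without KO_345, 67 without WT_341, 45 without WT_343 and 29 without WT_344. In the same fits between 7.95% and 26.6% of all genes were lower.

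**Figure D1:**
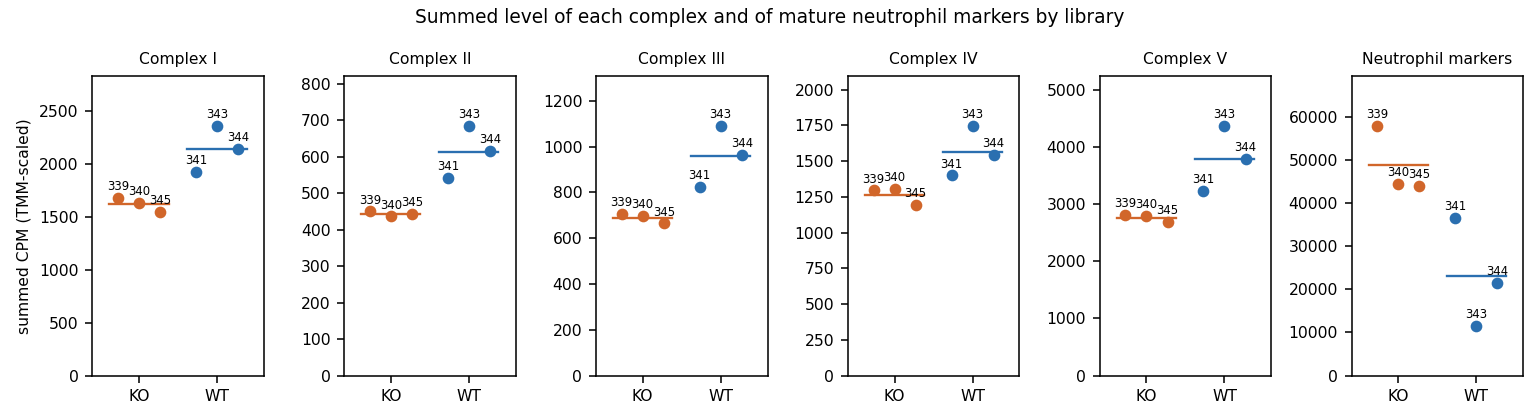
Summed TMM-scaled CPM of the members of each complex, and of 12 mature neutrophil markers, in each library (points, labelled by mouse number) with the group mean (line). In every complex the 3 KO libraries lie below the 3 WT libraries, while all KO libraries lie above all WT libraries in the neutrophil markers, and WT_343 and WT_341 are at opposite ends of the WT group in both.

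**Figure D2:**
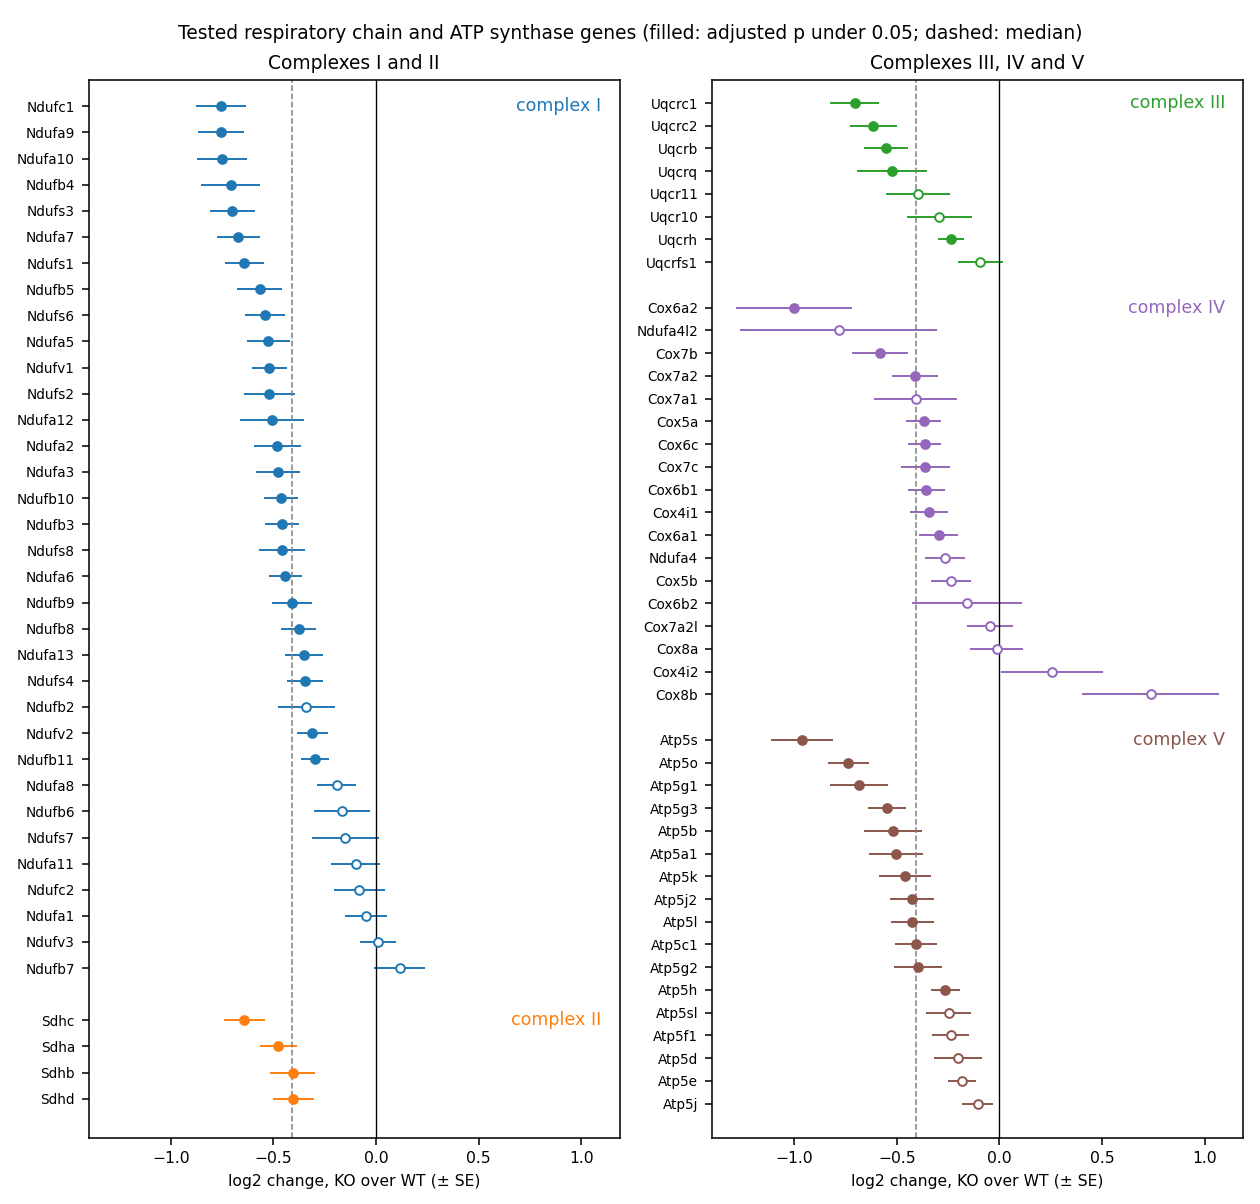
Log2 change, KO over WT, of the 81 tested members by complex, with its standard error (bars, 3 libraries per group), filled where the adjusted p is under 0.05 and with the member median of -0.41 dashed. The 55 filled points all lie left of 0, and the 4 points right of 0 are open.

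Promoter sequence is shown for 4 members chosen by their call. For each of 3 factors known to bind respiratory gene promoters, the member called lower with the smallest adjusted p among those carrying its letters was taken. Cox8a was taken from the members without a call whose window holds any of these letters, as the one with the change nearest 0. NRF1, GABPA and YY1 are transcription factors long studied for this gene group. The windows run from 250 bases before to 50 bases after the annotated start (RefSeq, GRCm38.p6), 5′ to 3′ on the gene's strand, and capitals mark the letters searched on both strands: GCATGCGC for NRF1, which overlaps its own reverse complement here, AAGATGGCG for YY1, and CCGGAAGT for GABPA and other ETS factors, which reads ACTTCCGG on the opposite strand. Uqcrc1 lies at chr9:108936398-108936697 (plus strand), Ndufa9 at chr6:126849095-126849394 (minus), Ndufs3 at chr2:90904672-90904971 (minus) and Cox8a at chr19:7217567-7217866 (minus).
Uqcrc1: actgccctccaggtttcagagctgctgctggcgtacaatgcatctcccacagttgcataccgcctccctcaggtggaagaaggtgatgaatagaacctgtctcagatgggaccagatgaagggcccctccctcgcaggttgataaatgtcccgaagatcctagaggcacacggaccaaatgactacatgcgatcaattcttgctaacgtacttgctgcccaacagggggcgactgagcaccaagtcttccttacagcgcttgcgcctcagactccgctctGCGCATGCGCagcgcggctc
Ndufa9: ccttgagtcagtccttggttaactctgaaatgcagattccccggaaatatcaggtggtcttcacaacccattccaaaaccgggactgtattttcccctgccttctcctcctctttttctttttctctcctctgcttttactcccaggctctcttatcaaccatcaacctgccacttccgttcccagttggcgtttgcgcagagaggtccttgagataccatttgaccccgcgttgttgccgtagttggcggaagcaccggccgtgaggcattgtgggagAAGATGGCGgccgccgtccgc
Ndufs3: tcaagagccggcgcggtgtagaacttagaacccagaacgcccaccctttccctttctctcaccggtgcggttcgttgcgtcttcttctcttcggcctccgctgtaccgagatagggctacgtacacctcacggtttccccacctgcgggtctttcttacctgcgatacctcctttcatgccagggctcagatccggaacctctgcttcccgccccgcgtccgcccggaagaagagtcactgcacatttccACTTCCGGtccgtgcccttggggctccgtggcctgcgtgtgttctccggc
Cox8a: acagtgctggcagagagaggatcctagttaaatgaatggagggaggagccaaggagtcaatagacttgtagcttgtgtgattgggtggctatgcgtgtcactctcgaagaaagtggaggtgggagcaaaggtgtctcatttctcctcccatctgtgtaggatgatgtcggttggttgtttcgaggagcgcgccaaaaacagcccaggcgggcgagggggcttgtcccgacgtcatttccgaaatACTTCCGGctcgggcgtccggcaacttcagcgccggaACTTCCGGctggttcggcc
That the first 3 genes were called lower and Cox8a was not follows from this choice. The Cox8a window holds the ETS letters at 2 places. Windows were found for 66 of the 84 members, 71 windows in all. The NRF1 letters were in 10 of these 71 (14.1%), against 2.71% of all 32851 windows, the YY1 letters in 7 (9.86% against 1.4%) and the ETS letters in 5 (7.04% against 3.89%). CCAAT was in 42.3% of member windows and 37.4% of all windows, and TATAAA in 11.3% and 13.6%. The median GC content was 57.3% in member windows and 52.7% in all windows. By call, the NRF1 letters were in 7 of 42 members called lower (16.7%) and in 3 of 22 members without a call (13.6%), the YY1 letters in 5 of 42 and 1 of 22, and the ETS letters in 3 of 42 and 2 of 22. These matches describe letters and not bound sites.

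Complex I, the NADH dehydrogenase, had 25 of 34 tested members lower in KO cells and a median log2 change of -0.46. Its 7 conserved core subunits, which carry the electron path, had 6 lower, and the 27 accessory subunits had 19 lower (medians -0.52 and -0.44). Ndufs1, the largest core subunit and a carrier of iron-sulfur clusters, had 80.5, 80.6 and 79.6 CPM in KO libraries, against 112, 142 and 122 CPM in WT libraries. The KO libraries were within about 1 CPM of each other and below all WT libraries. Its log2 change was -0.64 ± 0.10 (adjusted p = 0.00484). Ndufs3, a core subunit of the arm that meets the quinone (printed above with the ETS letters), had 24.3, 23.4 and 24.7 CPM in KO libraries, against 34.6, 44.3 and 38.7 CPM in WT libraries, a change of -0.70 ± 0.11 (adjusted p = 0.00526). Ndufv1, which binds NADH and its flavin, had 81.4, 80.7 and 78.3 CPM in KO libraries, against 106, 127 and 111 CPM in WT libraries, a change of -0.52 ± 0.08 (adjusted p = 0.00614). Neither gene overlapped between the groups. The core subunit without a call was Ndufs7, an iron-sulfur subunit, at 35.1, 33.7 and 33.5 CPM in KO libraries and 28.1, 41.4 and 44.0 CPM in WT libraries, where WT_341 lay below and the other WT libraries above the KO group (log2 -0.15, adjusted p = 0.493).

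Among the accessory subunits of complex I, Ndufa9, which sits where the matrix arm joins the membrane arm, had 60.2, 56.7 and 57.8 CPM in KO libraries, against 86.3, 114 and 94.2 CPM in WT libraries. The highest KO library was well below the lowest WT library. Its log2 change was -0.76 ± 0.11 (adjusted p = 0.00466), to 59.2% of the WT level. Ndufa7, an accessory subunit of the matrix arm, had 30.7, 27.6 and 26.4 CPM in KO libraries, against 40.2, 47.7 and 47.0 CPM in WT libraries (log2 -0.67 ± 0.10, adjusted p = 0.00536). Ndufc1, a small subunit of the membrane arm, had 17.7, 17.8 and 14.7 CPM in KO libraries, against 25.2, 31.2 and 28.3 CPM in WT libraries (log2 -0.76 ± 0.12, adjusted p = 0.0059). Both were also lower in every KO library than in every WT library. The 2 complex I members with a log2 change above 0, neither called, were the accessory subunits Ndufb7 (0.12, adjusted p = 0.489) and Ndufv3 (0.01, adjusted p = 0.932). Ndufs5 had 1 count in KO_345 and 0 in the other libraries and was not tested; its protein is a regular subunit of the complex, and how the counting treated its reads was not given in the sources used here. Of the 25 calls, 14 held when any 1 library was left out, and 7 held in every alternative, the neutrophil covariate included: Ndufa7, Ndufa9, Ndufa10, Ndufb3, Ndufs1, Ndufs3 and Ndufv1. The complex I count was 15 without KO_340, 15 without KO_345 and 7 with the neutrophil covariate.

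Complex II, succinate dehydrogenase, is also an enzyme of the citric acid cycle and is the only complex made wholly from nuclear genes. All 4 of its genes were lower in KO cells. Sdhc, a membrane anchor with the heme site, had 58.6, 54.1 and 56.1 CPM in KO libraries, against 77.5, 99.1 and 86.8 CPM in WT libraries, and the groups stood apart. Its log2 change was -0.64 ± 0.10 (adjusted p = 0.00551). Sdha, the flavoprotein that oxidises succinate, had 209, 214 and 213 CPM in KO libraries, against 261, 325 and 299.6 CPM in WT libraries (log2 -0.47 ± 0.09, adjusted p = 0.00982). The KO libraries hardly differed among themselves, whereas WT_343 was above the other WT libraries. Sdhd, the other anchor, had 119, 114 and 112 CPM in KO libraries, against 135, 173 and 148 CPM in WT libraries (log2 -0.40 ± 0.10, adjusted p = 0.0203). Sdhb, the iron-sulfur subunit, had 63.3, 54.0 and 62.3 CPM in KO libraries, against 69.0, 87.8 and 81.0 CPM in WT libraries (log2 -0.41 ± 0.11, adjusted p = 0.0274). Neither gene's groups overlapped, although KO_339 and WT_341 came close in Sdhb. The count fell to 2 without KO_339, KO_340, KO_345 or WT_344, with Sdha and Sdhc called in each of those fits, and to 1, Sdhc, with the neutrophil covariate. It was 3 with upper-quartile factors or library totals, where Sdhb was not called, and the Sdhb call was lost in 8 of the 15 alternatives.

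Complex III, the cytochrome bc1 complex, had 5 of 8 members lower in KO cells (median -0.46). Uqcrc1 and Uqcrc2 encode its large core proteins, which face the matrix and do not carry electrons. Uqcrc1, printed above with the NRF1 letters, had 168, 173 and 162 CPM in KO libraries, against 225, 309 and 288 CPM in WT libraries (log2 -0.71 ± 0.12, adjusted p = 0.00673). Uqcrc2 had 132, 119.7 and 128 CPM in KO libraries, against 172, 228 and 180.4 CPM in WT libraries (log2 -0.61 ± 0.12, adjusted p = 0.00908). In both genes all KO libraries were lower than all WT libraries. The small subunits Uqcrb, Uqcrq and Uqcrh stabilise the complex near the quinone site and at the contact with cytochrome c1. Uqcrb had 71.3, 69.0 and 62.0 CPM in KO libraries, against 90.1, 113 and 93.5 CPM in WT libraries (log2 -0.55 ± 0.11, adjusted p = 0.00976). Uqcrh had 106, 102 and 100.04 CPM in KO libraries, against 120.3, 124 and 118 CPM in WT libraries (log2 -0.24 ± 0.06, adjusted p = 0.0262). Uqcrh had a small and even difference between groups that did not overlap, and Uqcrq a wider one in which WT_341 lay close to the KO group, with 31.5, 32.9 and 30.0 CPM in KO libraries, against 33.4, 54.3 and 47.9 CPM in WT libraries (log2 -0.52 ± 0.17, adjusted p = 0.0469). The Uqcrq call was lost in 11 of the 15 alternatives, among them limma-voom, library totals and sex as a covariate, and the Uqcrh call in 8. Uqcrfs1, the Rieske iron-sulfur protein that carries electrons onward, was at -0.09 (adjusted p = 0.527), with overlapping groups. The count was 3 without KO_339, KO_340, KO_345 or WT_344 and also with upper-quartile factors, with library totals or with a filter at 1 CPM; it was 0 with the neutrophil covariate, where Uqcrc1 had a log2 change of -0.40 and an adjusted p of 0.0516.

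Complex IV, cytochrome c oxidase, had the smallest median change of the 5 complexes, -0.35, and 9 of 18 tested members lower. Differences between complexes were not tested. The 18 include the weakly expressed Cox4i2, Cox6a2, Cox6b2, Cox7a1, Cox8b and Ndufa4l2, of which only Cox6a2 was called. The highest of these was Cox6b2, with a mean of 4.24 CPM in KO and 4.74 CPM in WT libraries. The share lower in complex IV thus depends in part on isoforms at low levels. Cox4i1, the regulatory subunit that binds ATP, had 221, 226 and 210.3 CPM in KO libraries, against 248, 307 and 277 CPM in WT libraries (log2 -0.34 ± 0.09, adjusted p = 0.0271). Cox5a had 101, 103 and 102 CPM in KO libraries, against 118, 143 and 134 CPM in WT libraries (log2 -0.37 ± 0.08, adjusted p = 0.016). Neither gene overlapped between groups. Cox6b1, which helps to join the enzyme into dimers, had 109, 105 and 99.6 CPM in KO libraries, against 123, 149 and 129 CPM in WT libraries (log2 -0.36 ± 0.09, adjusted p = 0.0212). Cox6c had 103, 100.2 and 97.8 CPM in KO libraries, against 120.3, 142 and 125 CPM in WT libraries (log2 -0.36 ± 0.08, adjusted p = 0.0148). Cox7b had 89.6, 84.4 and 72.2 CPM in KO libraries, against 110.0, 147 and 112 CPM in WT libraries (log2 -0.58 ± 0.14, adjusted p = 0.0171). Each KO library was again below each WT library in these genes. The Cox4i1 call was lost in 8 of the 15 alternatives, among them upper-quartile factors, library totals and sex as a covariate. The Cox6b1 call was lost in 6, the Cox5a call in 3, and the Cox6c and Cox7b calls in 2 each. Without KO_345 the count was 1, without KO_339 it was 2, without KO_340 or WT_344 it was 3 and without WT_343 it was 5. It was 4 with upper-quartile factors and 0 with the neutrophil covariate, and no complex IV call held in every fit that left out 1 library. The share lower was 5.56% without KO_345, below the 10.3% of all genes in that fit, 11.1% against 7.95% without KO_339, 16.7% against 10.4% without KO_340 and 16.7% against 11.5% without WT_344.

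Several complex IV subunits have isoforms that in mammals belong to muscle, lung or testis, and these were present at low levels. Cox6a1, the widely expressed form, had 79.5, 79.0 and 73.9 CPM in KO libraries, against 83.1, 101 and 101 CPM in WT libraries (log2 -0.30 ± 0.09, adjusted p = 0.045). Its heart and muscle counterpart Cox6a2 had 1.15, 1.14 and 0.787 CPM in KO libraries, against 1.82, 2.75 and 1.58 CPM in WT libraries (log2 -1.0 ± 0.28, adjusted p = 0.0308). Both forms were called lower in KO cells. The Cox6a1 call was lost in 11 of the 15 alternatives, among them limma-voom, library totals and sex as a covariate. The Cox6a2 call was lost in 5, and its change was -0.74 without WT_343 and -0.61 with the neutrophil covariate. Cox7a2, the widely expressed form, was also lower (-0.41 ± 0.11, adjusted p = 0.0281), while its muscle counterpart Cox7a1, near 1 CPM, had a change of -0.41 and no call (adjusted p = 0.147). The Cox7a2 call was lost in 7 of the 15 alternatives, among them upper-quartile factors. Cox4i2, the form known from lung, had 0.665, 0.630 and 0.659 CPM in KO libraries and 0.454, 0.589 and 0.592 CPM in WT libraries. It was the 1 member with all KO libraries above all WT libraries, by a margin that did not pass (log2 0.26 ± 0.25, adjusted p = 0.438). Cox8a, the widely expressed form of the smallest subunit, had 122, 126 and 104 CPM in KO libraries and 97.8, 132 and 125 CPM in WT libraries. Its groups overlapped fully (log2 -0.01 ± 0.13, adjusted p = 0.946). Cox8b, the muscle form, had 0.590, 0.622 and 0.397 CPM in KO libraries and 0.333, 0.234 and 0.399 CPM in WT libraries, with no call (log2 0.74 ± 0.33, adjusted p = 0.12). Cox6b2, known from testis, was at -0.16 (adjusted p = 0.664), and the testis forms Cox7b2 and Cox8c, with 0 counts and 1 count over all libraries, were not tested. Ndufa4 had 122, 115 and 105 CPM in KO libraries and 123, 149.7 and 139.6 CPM in WT libraries, which just missed the threshold (log2 -0.27 ± 0.10, adjusted p = 0.0652). It passed without WT_341 (adjusted p = 0.0101) and without the low-count filter (adjusted p = 0.0454). Ndufa4l2, below 1 CPM, and Cox7a2l, an assembly factor of supercomplexes, had no call (log2 -0.78 and -0.05, adjusted p = 0.229 and 0.772).

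**Figure D3:**
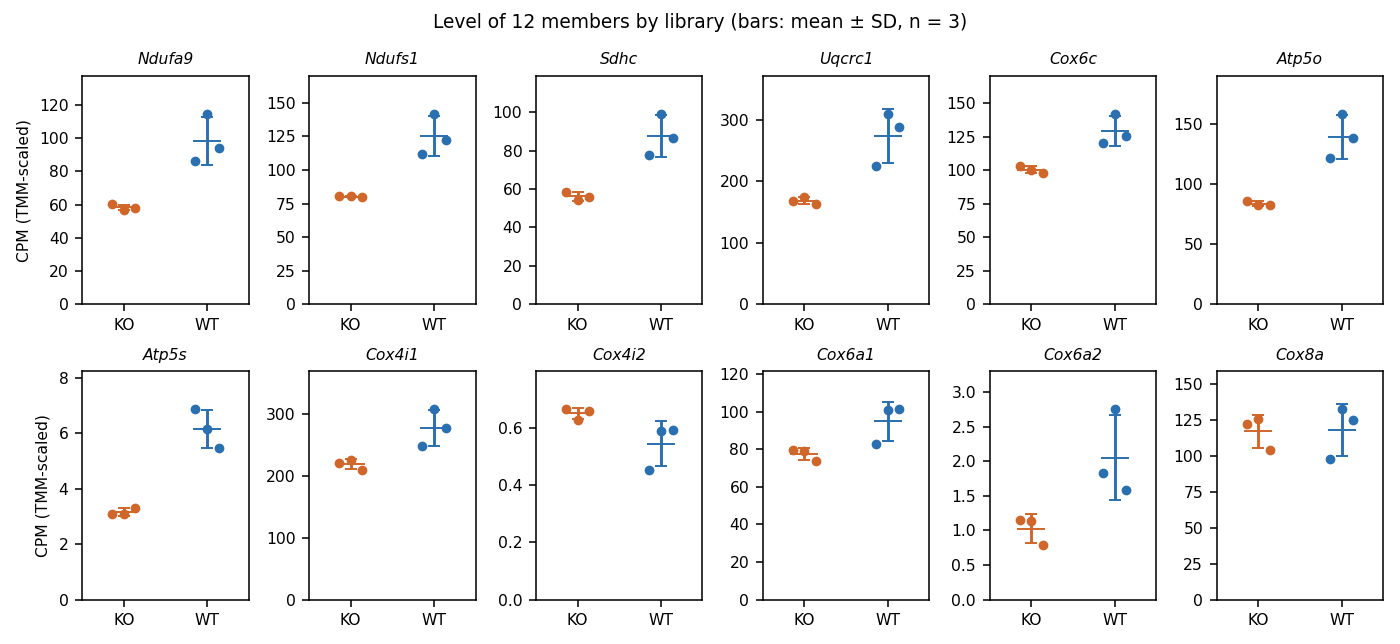
TMM-scaled CPM of 12 members in each library (points), with mean and SD of 3 libraries, KO left and WT right, each panel on its own linear axis from 0. The first 7 genes and Cox4i1, Cox6a1 and Cox6a2 have all KO libraries below all WT libraries, Cox4i2 has them above at less than 1 CPM, and the groups overlap in Cox8a.

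Complex V, the ATP synthase, had 12 of 17 members lower in KO cells (median -0.42). The catalytic head held the most abundant members per length: Atp5a1 averaged 236 CPM per kilobase of exon in KO and 334 in WT libraries, and Atp5b 195 and 279.6. Atp5b, the catalytic beta subunit, had 836, 847 and 797 CPM in KO libraries, against 966, 1413 and 1175 CPM in WT libraries (log2 -0.52 ± 0.14, adjusted p = 0.027). Atp5a1, the alpha subunit, had 748, 752 and 718 CPM in KO libraries, against 862, 1229 and 1053 CPM in WT libraries (log2 -0.50 ± 0.13, adjusted p = 0.025). Both were lower in every KO library, and the 3 KO mice lay much closer together than the WT mice. The gamma subunit Atp5c1, the rotating shaft, had 187, 177 and 175 CPM in KO libraries, against 212, 273 and 229 CPM in WT libraries (log2 -0.41 ± 0.10, adjusted p = 0.021). The delta and epsilon subunits Atp5d and Atp5e, at the foot of the shaft, had changes of -0.20 and -0.18 and no call (adjusted p = 0.206 and 0.0744).

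Atp5o, the subunit at the top of the peripheral stalk that holds the head still, had the smallest adjusted p of all members. It had 85.8, 82.6 and 82.6 CPM in KO libraries, against 121, 158 and 138 CPM in WT libraries (log2 -0.74 ± 0.10, adjusted p = 0.00414). The other stalk subunits had log2 changes nearer 0. Atp5h was lower (-0.26, adjusted p = 0.0272), and Atp5f1 and Atp5j were not called (-0.24 and -0.11, adjusted p = 0.0749 and 0.289). The membrane ring is built from the c subunit, which is made from Atp5g1, Atp5g2 and Atp5g3 with the same mature protein. Atp5g3 had 108, 111 and 117 CPM in KO libraries, against 143, 178 and 169 CPM in WT libraries (log2 -0.55 ± 0.09, adjusted p = 0.00691). Atp5g1 had 66.7, 70.7 and 69.5 CPM in KO libraries, against 89.0, 135 and 109 CPM in WT libraries (log2 -0.69 ± 0.14, adjusted p = 0.0118). Atp5g2 had 35.1, 32.0 and 31.6 CPM in KO libraries, against 36.9, 48.8 and 44.2 CPM in WT libraries (log2 -0.40 ± 0.12, adjusted p = 0.0358). All 3 c subunit genes were called lower, none with overlapping groups, but the Atp5g2 call was lost in 10 of the 15 alternatives, among them upper-quartile factors, library totals, the 1 CPM filter and sex as a covariate. Together they summed to 209.9, 213.8 and 217.7 CPM in KO libraries, against 269.2, 361.2 and 322.4 CPM in WT libraries. Atp5g3 gave 51.5% to 53.6% of that sum in KO and 49.2% to 53.3% in WT libraries, and Atp5g1 gave 31.8% to 33.1% and 33.1% to 37.3%. The share of Atp5g2 was 16.7%, 15% and 14.5% in KO libraries, above the 13.7%, 13.5% and 13.7% in WT libraries. Atp5s, which encodes a coupling factor B-like protein and not a structural subunit, had 3.11, 3.07 and 3.32 CPM in KO libraries, against 6.86, 6.16 and 5.48 CPM in WT libraries (log2 -0.96 ± 0.15, adjusted p = 0.00534). It differed from most members in that WT_341 was its highest WT library and WT_343 was not. The count for complex V was 6 without KO_339, 4 without KO_340, 5 without KO_345, 4 without WT_344 and 3 with the neutrophil covariate, the last being Atp5g3, Atp5o and Atp5s. Calls that held when any 1 library was left out were these 3 and Atp5g1.

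**Figure D4:**
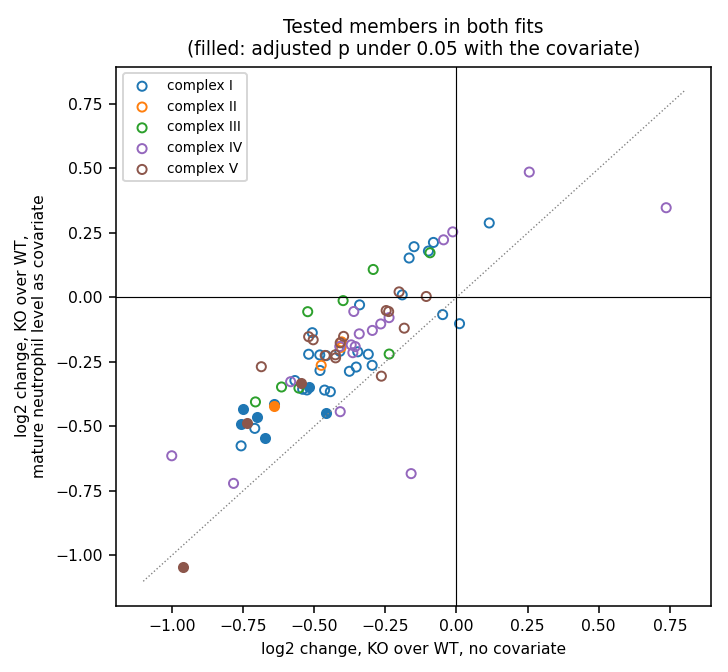
Log2 change, KO over WT, of the 81 tested members without a covariate (horizontal axis) and with the mature neutrophil marker level of each library as a covariate (vertical axis), coloured by complex and filled where the adjusted p is under 0.05 with the covariate; the dotted line marks equal changes. Most points lie above the dotted line, the median goes to -0.22 with the covariate in place of -0.41 without it, and 11 points are filled, all below 0.

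Other genes that serve the complexes, without matching the symbol rule, were also called lower in part. Of 7 tested further chain components, 4 were lower (median -0.43), among them cytochrome c, Cycs (log2 -0.66, adjusted p = 0.0112), cytochrome c1, Cyc1 (-0.60, adjusted p = 0.0102), and the ATP synthase inhibitor Atpif1 (-0.50, adjusted p = 0.00769). Assembly factors are proteins that build a complex and are not part of it. Those of complex I had 6 of 14 lower, with Ndufaf1 at -0.70 (adjusted p = 0.00496), Foxred1 at -0.52 and Acad9 at -0.63, and those of complexes II and III 5 of 7, with Uqcc1 at -0.73 (adjusted p = 0.00567), Bcs1l at -0.56 and Sdhaf2 at -0.37. Those of complex IV had 7 of 19 lower, with Surf1 at -0.58 (adjusted p = 0.00643), Cmc1 at -0.59 and Coa7 at -0.73, and those of complex V 1 of 3, Atpaf2 at -0.44 (adjusted p = 0.0206), with Atpaf1 and Tmem70 at -0.11 and -0.18 and no call. These shares were 57.1% for the further components, 42.9% for complex I factors, 71.4% for II and III, 36.8% for IV and 33.3% for V, and the last 2 are close to the 32.0% of genes of at least 10 CPM. With the neutrophil covariate the 5 counts were 0, 2, 1, 1 and 0, and of the named genes Ndufaf1, Foxred1, Uqcc1 and Surf1 kept their call. Leaving out 1 library gave 3 to 6, 3 to 10, 2 to 6, 2 to 12 and 0 to 2. Of all genes, 6.02% were lower with the covariate and 7.95% to 26.6% without 1 library. None of these factors was called higher by edgeR, DESeq2 or limma-voom.

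Expression of mitochondrial DNA was covered by 12 tested genes, of which 6 were lower (median -0.34). Lrpprc, which stabilises mitochondrial messenger RNAs, had 72.0, 72.9 and 81.5 CPM in KO libraries, against 133, 206 and 166 CPM in WT libraries, the widest gap of the list (log2 -1.16 ± 0.15, adjusted p = 0.00378). Its groups stood far apart, and its call held in every alternative. Tfb1m and Tfb2m were at -0.52 and -0.55 (adjusted p = 0.0137 and 0.0188). Their calls were lost in 3 and 4 of the 15 alternatives, the neutrophil covariate among them. The citric acid cycle and pyruvate dehydrogenase, which feed the chain with electrons, had 15 of 17 genes lower (median -0.56). Idh3b, a subunit of isocitrate dehydrogenase, and Pdhb, a subunit of pyruvate dehydrogenase, were at -0.56 and -0.50. Carriers that move ATP, phosphate and metabolites had 6 of 7 genes lower (median -0.65), with the smallest adjusted p at the phosphate carrier Slc25a3 (-0.65, adjusted p = 0.00609), and with the adenine nucleotide carrier Slc25a5 at -0.66 and the outer membrane pore Vdac1 at -0.41. The shares lower in these lists were 50%, 88.2% and 85.7%. Over all genes tested the share was 19.9%, and among genes of at least 10 CPM it was 32.0%.

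Nuclear regulators of respiratory genes did not share 1 direction, with 3 of 10 lower and 2 higher (median -0.09). That was 30% lower and 20% higher, against 19.9% and 16.0% of all genes tested. Among genes of at least 10 CPM the shares were 32.0% and 9.62%, so the regulators' share lower was near that of such genes. Gabpb2 and Hcfc1 were lower (-0.49 and -0.33, adjusted p = 0.00422 and 0.0239). The Gabpb2 call held in every alternative, while Hcfc1 lost its call in 7 of 15, among them upper-quartile factors (-0.19, adjusted p = 0.0851), library totals (-0.22, adjusted p = 0.0575) and the neutrophil covariate (-0.20, adjusted p = 0.19). Ppargc1a, a coactivator known for raising respiration in muscle and fat, had 0.466, 0.341 and 0.412 CPM in KO libraries, against 0.186, 0.0506 and 0.110 CPM in WT libraries. It was higher in every KO library at a level far below 1 CPM (log2 1.83 ± 0.48, adjusted p = 0.025), and the call was lost without KO_339, KO_340, KO_345 or WT_344 and with the neutrophil covariate (adjusted p = 0.0545 to 0.361). Esrra, its nuclear receptor partner, was also higher (0.39, adjusted p = 0.0476), and Nrf1 and Gabpa had no call (-0.09 and -0.08). With the neutrophil covariate 1 regulator was lower and 0 higher, and leaving out 1 library gave 1 to 4 lower and 0 to 2 higher. The Esrra call was thus also lost with the covariate and in at least 1 fit that left out 1 library. Genes of mitophagy and mitochondrial dynamics had 6 of 11 lower, among them Dnm1l (-0.42), Opa1 (-0.33) and Bnip3 (-0.59), and 1 higher, Bnip3l (0.28, adjusted p = 0.0357), which is known for clearing mitochondria from maturing red cells. The call of Bnip3l was lost with the neutrophil covariate and in at least 1 fit that left out 1 library. It was also lost in at least 1 fit that kept all libraries and had another scaling, filter, test or sex as a covariate. The Bnip3 call was lost in 3 of the 15 alternatives and the Opa1 call in 6. For Opa1 these included upper-quartile factors (-0.19, adjusted p = 0.0948) and library totals (-0.23, adjusted p = 0.0618). The share lower in the mitophagy and dynamics list was 54.5%. With the neutrophil covariate the counts lower were 6 for the citric acid cycle list, 1 for the carriers, 1 for mitochondrial DNA expression and 1 for mitophagy and dynamics. In that fit 6.02% of all genes were lower. Leaving out 1 library gave 9 to 17, 2 to 6, 1 to 9 and 1 to 7 in these lists, and 7.95% to 26.6% of all genes.

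**Figure D5:**
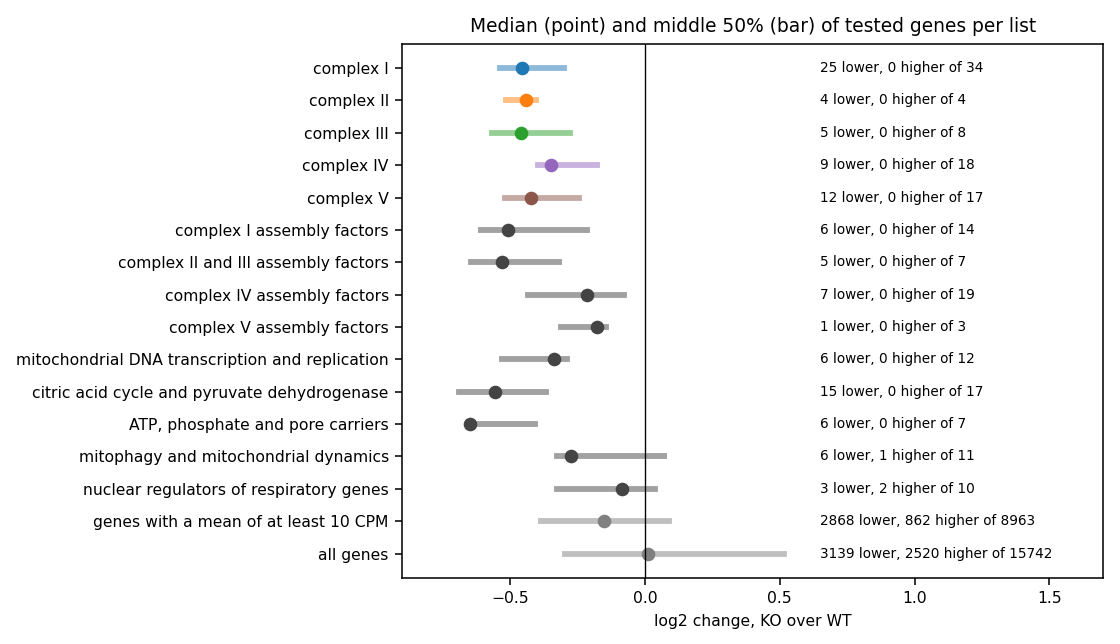
Median log2 change, KO over WT (points), and middle 50% of the tested genes (bars) for each complex, for related mitochondrial gene lists and for all genes, with the numbers called lower and higher at an adjusted p under 0.05 on the right. The 5 complexes have medians of -0.46 to -0.35, the regulators lie at -0.09, and all genes lie at 0.01.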

How the data were processed

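Raw read counts per gene symbol were deposited by the authors for 6 libraries without normalization. Per the labels' protocols, RNA of individual mice went into strand-specific TruSeq libraries read as pairs of 75 bp. Tools named in the submitters' processing notes, with no version, are HTSeq, STAR, Trimmomatic and FastQC, and the build is mm10. How HTSeq handled strand and reads with several positions, and with which annotation, was not given in the sources used here; such reads could shift counts of genes with near-identical copies or pseudogenes, among them many members.

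For the test of the counts, edgeR 4.0.16 (R 4.3.3) was used with filterByExpr (minimum count 10, minimum total 15), TMM factors, robust glmQLFit and glmQLFTest for genotype, and Benjamini-Hochberg adjustment over 15742 genes with a threshold of 0.05. The script was tested on simulated data. Levels are TMM-scaled CPM; CPM per kilobase uses the union exon length of GENCODE M21 on GRCm38, to which 22737 symbols matched directly and 931 by synonym, with 394 unmatched. DESeq2 1.42.0 and limma 3.58.1 (voom) were alternatives, beside other scalings, filters, covariates for sex (KO_339, KO_340 and WT_341 read as male) and neutrophil marker level, and leaving out each library. Library pairs differed by a chi-square of at least 58.7 per degree of freedom, so none was a second deposit. Mouse numbers pair no samples, and no batch is given. Groups of 3 separate mice set the precision, since counting error is small at these depths.

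The members and lists were chosen with earlier results of these data known. Named were Ints11; in each complex the 5 (complex II, 4) members of smallest adjusted p; every member called higher; all paired or tissue-restricted isoforms; and 3 genes per further list with the smallest adjusted p, of which 1 gene is not reported. Ndufa10, Ndufb3, Ndufs7, Ndufb7, Ndufv3, Ndufs5, Uqcrfs1, Atp5a1, Atp5b, Atp5d, Atp5e, Atp5f1, Atp5h, Atp5j, Esrra, Nrf1, Gabpa, Bnip3l and the cell type markers given by value were named outside that rule, after their values were seen.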

Additional observations from a re-analysis of the deposited data

How the results depend on the processing

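All 55 member calls had a log2 change below 0 in each of the 15 alternatives fitted; 38 stayed calls in every fit that kept all libraries and had no neutrophil covariate, 23 in every fit that left out 1 library, and 11 in all fits. The number lower went to 11 with the neutrophil covariate and to 26 to 67 when 1 library was left out. Other settings gave 39 with upper-quartile factors, 55 with DESeq2 size factors, 46 with library totals, 56 without a low-count filter, 48 at 1 CPM or more, 56 with DESeq2, 52 with limma-voom, 48 with sex as a covariate and 54 with structural subunits only. Over all genes 5659 were called, 1520 with the neutrophil covariate and 2302 to 7879 without 1 library. By complex the number lower with the neutrophil covariate was 7, 1, 0, 0 and 3 for I to V. Without 1 library it was 15 to 29 for complex I, 2 to 4 for II, 3 to 7 for III, 1 to 11 for IV and 4 to 16 for V. Complex III gave 3 with upper-quartile factors, library totals or the 1 CPM filter, and complex IV gave 4 with upper-quartile factors. The cause was not tested. Scaling moved the median of all genes from 0.01 to 0.15 with upper-quartile factors and to 0.11 with library totals, and the share of higher calls over all genes from 44.5% to 64.2% and 58.8%, which turns a majority of lower calls into one of higher calls; the members' median relative to all genes was -0.42 in each. No call of a member or other named gene changed sign in these fits. Among members without a call some did: with the neutrophil covariate 67 of 81 were below 0 in place of 77, with Uqcrfs1 at 0.17, Ndufs7 at 0.20 and Cox8a at 0.25. Of 552 fits of named members, 97 lost a call and 2 gained one. No paired analysis was possible because the mouse numbers are not shared between genotypes. Weakly expressed isoforms under 1 CPM rest on few reads, and 3 members could not be tested.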
